A study of Mus musculus with 34 samples.

Results

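The 40 mitosis and G2/M genes described here are genes whose products drive a cell from G2 into mitosis and through its division. They were chosen by name from textbook roles, with earlier results of these data known: mitotic cyclins with Cdk1 and its phosphatase Cdc25c (5 genes), mitotic kinases (4), the spindle checkpoint and anaphase-promoting complex (5), the chromosomal passenger complex (4), kinesins (5), kinetochore and centromere proteins (6), spindle assembly factors (4), cytokinesis proteins (5), and Top2a with Mki67 (2). All 40 were found among the 52550 genes of the main set of libraries and among the 25498 of a second set named batch 1. All 40 also had enough counts to be tested, among 19444 and 15481 genes.

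The cells were bone marrow-derived macrophages, grown from whole marrow of mice 10 to 14 weeks old over 6 days with 10 ng/ml of the growth factor M-CSF. After replating and a rest they received vehicle or 200 mg/dL of low-density lipoprotein (LDL) for 24 h. All mice, WT included, had the Vav-Cre transgene, which recombines floxed genes in the blood lineage: WT had Vav-Cre alone, Dnmt3aKO had floxed Dnmt3a (Dnmt3a fl/fl), Tet2KO had floxed Tet2 (Tet2 fl/fl), and Jak2VF had 1 activated copy of the kinase gene Jak2 (V617F/WT). The series asks how these mutations of clonal hematopoiesis alter the macrophage transcriptome. The main set held 24 libraries, 3 for each genotype and treatment, and batch 1 held 10, covering only WT and Tet2KO, each as 3 vehicle and 2 LDL libraries. Nothing in the labels ties libraries to separate mice or cultures, so p-values measure only the spread between these libraries, which may be technical.

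Cyclin B bound to Cdk1 starts mitosis, Aurora and Polo-like kinases build the spindle, the checkpoint holds the cell until every kinetochore is attached, and the anaphase-promoting complex with Cdc20 then releases the sister chromatids. Most of these genes are transcribed late in the cell cycle, from S phase into mitosis, and are low in resting cells, so that their summed level is widely used as a measure of dividing cells. Macrophages grown with M-CSF divide while they mature and slow down as they finish. In bulk RNA, fewer dividing cells and less RNA per dividing cell cannot be told apart.

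Late cell cycle promoters are known for 2 short elements: the cell cycle genes homology region (TTTGAA and relatives), bound by the MuvB complex with its partners, among them B-Myb and FoxM1, and the CCAAT box, bound by NF-Y. RefSeq windows of GRCm38.p6, 250 bases before to 50 after a start site, were matched for 32 of the 40 genes; Aurkb, Dlgap5, Pbk, Kif20a, Tpx2, Incenp, Ccna2 and Cdc25c had none in the table. TTTGAA on either strand lay in the windows of 25 of the 32 genes, against 17.89% of 32851 windows of that length. CCAAT on either strand lay in those of 24, against 37.41% of all windows, and both strings together in 21, against 6.953%. TTTAAA, a relative of the first element, lay in 9 of 32, against 13.16%. The match with TTTGAA sat within 50 bases of the start site in 25 of the 34 windows of these genes (some have more than 1), or 73.53%, against 4.944% of all windows. These matches are descriptions of the letters, not of bound sites.

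The stretches from 130 bases before to 30 after the start site are shown for 6 genes whose values are followed below. Capitals mark TTTGAA (or its reverse complement TTCAAA) and CCAAT (or its reverse complement ATTGG), which not every gene of the class has. Each sequence is read 5′ to 3′ on the strand of the gene. Ccnb2 (chr9:70421525-70421684 on the minus strand) has 3 CCAAT boxes ahead of 1 TTTGAA, and Cdk1 (chr10:69352883-69353042 on the minus strand), Cenpa (chr5:30666756-30666915 on the plus strand), Kif11 (chr19:37376252-37376411 on the plus strand) and Top2a (chr11:99024160-99024319 on the minus strand) show other spacings. Nusap1 (chr2:119618168-119618327 on the plus strand), which had the largest fitted fall with LDL in WT, has neither string in this stretch.
Ccnb2: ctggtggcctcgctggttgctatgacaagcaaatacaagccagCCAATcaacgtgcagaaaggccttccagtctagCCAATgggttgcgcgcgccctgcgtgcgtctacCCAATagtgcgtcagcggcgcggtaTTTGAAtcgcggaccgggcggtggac
Cdk1: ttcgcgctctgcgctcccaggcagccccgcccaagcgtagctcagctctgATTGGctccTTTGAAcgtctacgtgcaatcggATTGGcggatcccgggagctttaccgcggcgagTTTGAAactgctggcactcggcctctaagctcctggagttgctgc
Cenpa: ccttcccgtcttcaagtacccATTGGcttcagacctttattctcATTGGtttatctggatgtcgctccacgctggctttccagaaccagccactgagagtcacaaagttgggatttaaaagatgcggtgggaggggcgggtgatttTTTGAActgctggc
Kif11: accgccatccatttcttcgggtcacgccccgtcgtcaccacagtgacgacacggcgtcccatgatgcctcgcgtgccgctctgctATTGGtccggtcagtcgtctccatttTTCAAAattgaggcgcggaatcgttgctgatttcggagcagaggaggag
Top2a: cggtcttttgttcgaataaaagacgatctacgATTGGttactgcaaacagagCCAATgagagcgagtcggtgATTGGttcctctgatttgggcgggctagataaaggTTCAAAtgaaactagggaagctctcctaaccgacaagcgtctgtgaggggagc
Nusap1: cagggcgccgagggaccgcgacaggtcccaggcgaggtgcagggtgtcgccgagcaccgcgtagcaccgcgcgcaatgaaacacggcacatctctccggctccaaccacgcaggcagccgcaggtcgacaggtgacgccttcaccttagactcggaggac

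Total counts were 24105237 to 43904761 per library (main set) and 15171143 to 44449473 (batch 1), and the lowest count of any of the 40 genes in a library was 146 and 22. Dnmt3a, the targeted gene, stood at 63.9 ± 8.49 CPM (counts scaled by the TMM-adjusted library total; SD, n = 3) with vehicle in WT and 34.0 ± 2.28 in Dnmt3aKO. Tet2 was not lower in Tet2KO (34.8 ± 3.32 against 26.7 ± 6.26 CPM), and a count over the whole gene, which also holds exons outside a floxed part, does not check that label; nor does the Jak2 level check a point mutation. Macrophage markers were high in all 24 libraries (Csf1r 1621 to 2968 CPM), with Itgam not matched, and Siglech and Tpsb2 were at 0 in 6 and 16 of them. Col1a1 and 4 other stromal markers summed to 7131 CPM or more in every main library. In batch 1, normalized separately, they summed to 378 to 672 CPM in WT and 574 to 3227 CPM in Tet2KO. Gfap, an astrocyte gene, stood at 2.72 CPM in WT LDL library 3 and 4.26 in Tet2KO LDL library 3, against at most 0.714 in the other main libraries. Where these 2 libraries enter a comparison and change its count, the count without them is given.

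Nearly the whole mitotic set was lower with LDL in the WT macrophage cultures. The test was 1 edgeR quasi-likelihood fit over all genes, with a call at a Benjamini-Hochberg adjusted p under 0.05. By it 39 of the 40 genes were lower with LDL, against 7.58% of all genes tested, and 0 were higher, against 6.67%. Their median log2 fold change was -1.08, and in all 40 the 3 LDL libraries lay below the 3 vehicle libraries, as they did for 13.1% of all genes tested. The 40 genes summed to 3037 to 3483 CPM with vehicle and to 1424 to 1679 CPM with LDL. The largest fitted falls were in Nusap1 (-1.55 ± 0.11, SE), Mki67 (-1.52 ± 0.29), Kif11 (-1.51 ± 0.17) and Top2a (-1.44 ± 0.16). Cdc20, the activator of the anaphase-promoting complex, missed the threshold at -0.49 ± 0.16 with an adjusted p of 0.0525, although its libraries did not overlap.

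Nusap1, which bundles spindle microtubules (ENSMUSG00000027306, chr2:119618298-119651244, plus strand), stood at 64.4, 74.6 and 74.8 CPM in the 3 vehicle libraries of WT and at 22.3, 27.3 and 23.2 with LDL. The groups lay far apart, and the adjusted p of edgeR's test was 1.64e-09. With both Gfap libraries left out, 39 of the 40 genes were called. Marker genes of other cells, which do not count those cells, read as follows beside this result: 0 of 5 stromal markers were called in WT and their sum ran from 10038 to 11192 CPM with vehicle and from 7934 to 10216 CPM with LDL, while 2 of 7 granulocyte-monocyte progenitor markers fell and their sum ran from 22.3 to 26.1 and from 19.0 to 22.5 CPM. Of 5 megakaryocyte markers 2 rose, and their sum ran from 597 to 906 CPM with vehicle and from 1383 to 2098 CPM with LDL. Most of that sum was Pf4, at 488 to 1882 CPM over the main libraries, where Gp1bb and Gp9 reached at most 1.69 and 2.65. Of 8 neutrophil markers 1 rose and 2 fell (sum 199 to 261 and 303 to 383 CPM), of 4 monocyte markers 2 rose and 1 fell (354 to 425 and 400.3 to 721), and of 5 B cell markers 0 were called (15.6 to 24.3 and 12.1 to 17.6). The part of these cells in the result was not tested.

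**Figure D1:**
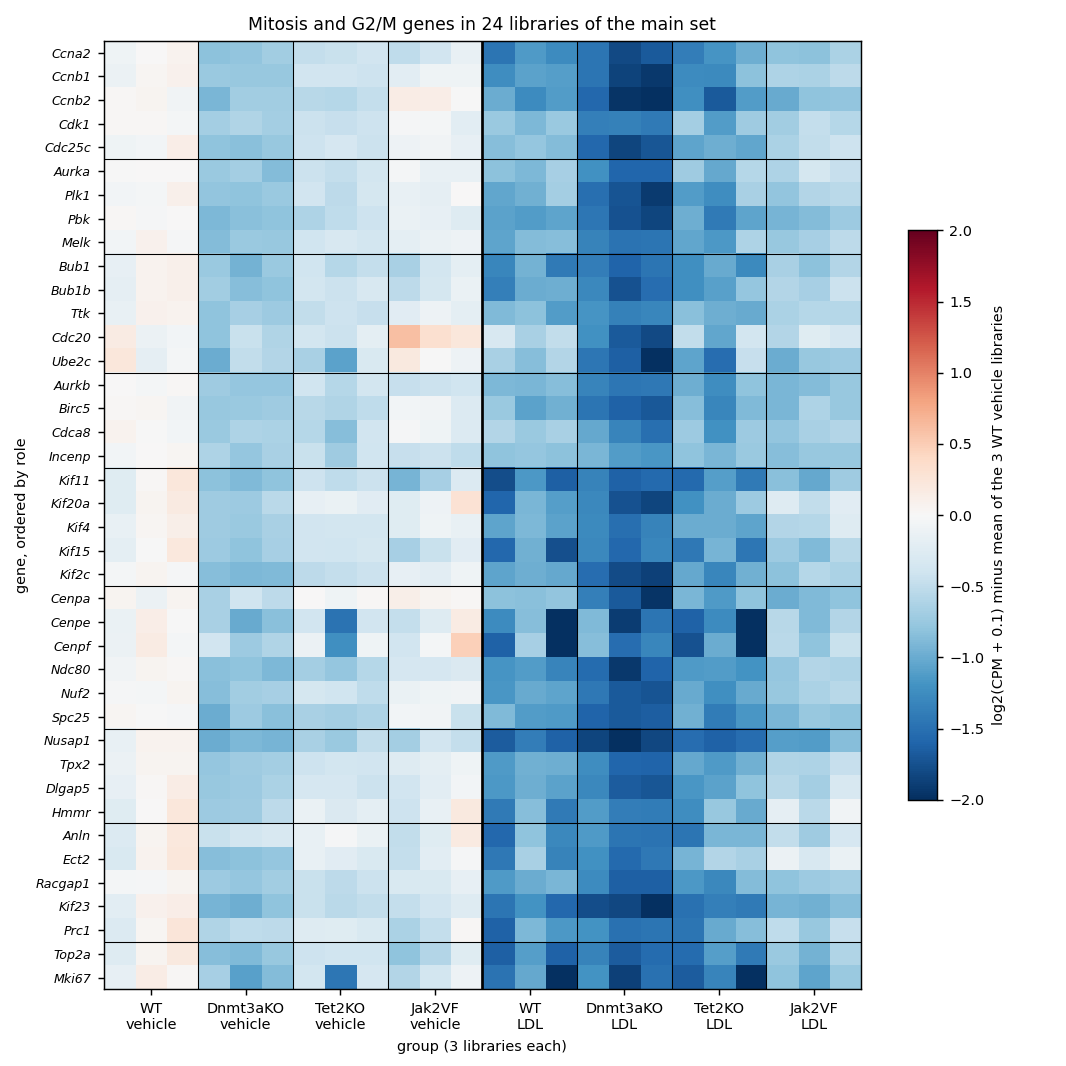
Each row is 1 of the 40 genes, grouped by role, and each column 1 of the 24 main libraries; colour gives log2(CPM + 0.1) minus the mean of the 3 WT vehicle libraries, with values beyond the scale drawn in its end colour. The 12 LDL columns on the right are blue in nearly every row, the Dnmt3aKO and Tet2KO vehicle columns are paler blue, and Jak2VF LDL is the palest of the LDL groups.

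The other genotypes showed the same direction with smaller fitted falls. In Dnmt3aKO 37 of 40 genes were lower with LDL (8.96% of all genes were) with a median of -0.78, in Tet2KO 36 of 40 (8.21%) with a median of -0.65, and in Jak2VF 26 of 40 (9.72%) with a median of -0.44. In each of these 3 comparisons 0 of the 40 genes were called higher. At an unadjusted p under 0.05 in edgeR 0 of the 40 were higher in each. Of all 19444 genes tested, 2178, 2967 and 2996 were higher at that p in Dnmt3aKO, Tet2KO and Jak2VF. LDL libraries lay below all vehicle libraries for 39, 34 and 29 genes, and for 23%, 15.1% and 16.5% of all genes tested. Fitted falls were larger in WT than in Dnmt3aKO for 35 genes, than in Tet2KO for 39 and than in Jak2VF for 37, a description whose test is the interaction given below. Counted by gene, 23 were called lower in all 4 genotypes, 12 in 3 and 5 in 2 (Cdc20, Cenpe, Cenpf, Ect2 and Mki67). The count in Jak2VF was 6 when the counts were read as already scaled and tested with limma, a setting that left 38, 38 and 28 in WT, Dnmt3aKO and Tet2KO. Without both Gfap libraries 34 genes were called in Tet2KO. The 3 uncalled genes of Dnmt3aKO were Cenpe, Cenpf and Mki67, and the 4 of Tet2KO were Cdc20, Ube2c, Cdca8 and Ect2.

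Markers of other cells moved with LDL here too. Stromal markers fell for 3 of 5 in Dnmt3aKO (sum 10300 to 10848 CPM with vehicle, 7301 to 7928 with LDL), for 3 of 5 in Tet2KO (10560 to 12767 and 7131 to 9494) and for 2 of 5 in Jak2VF (11581 to 15649 and 10469 to 11264). Progenitor markers fell for 5 of 7 in Dnmt3aKO (35.0 to 42.4 and 20.7 to 24.7 CPM), 4 of 7 in Tet2KO (35.2 to 36.7 and 26.2 to 27.9) and 6 of 7 in Jak2VF (41.2 to 46.3 and 24.8 to 27.0). In the T and NK cell list 1, 1, 2 and 1 of 6 genes fell in WT, Dnmt3aKO, Tet2KO and Jak2VF. Its sum ran from 26.9 to 28.2 CPM with vehicle and from 13.5 to 16.9 with LDL in WT, from 38.1 to 44.2 and from 14.9 to 15.8 in Dnmt3aKO, from 54.6 to 58.6 and from 17.8 to 21.1 in Tet2KO, and from 17.4 to 19.5 and from 4.97 to 5.96 in Jak2VF. In that list Cd4 reached 47.4 CPM over the main libraries, and Cd3e, Cd3d and Cd8a at most 1.29, 1.88 and 1.94. Megakaryocyte markers rose for 1, 2 and 1 of 5 in Dnmt3aKO, Tet2KO and Jak2VF, with 3 lower in Jak2VF, and their sums were 532 to 599 and 738 to 788, 738 to 869 and 1244 to 1848, and 548 to 936 and 978 to 1179.6 CPM with vehicle and LDL. Of 4 monocyte markers 1 rose in each mutant and 2, 2 and 3 fell, with sums of 733 to 767 and 1236 to 1354, 655 to 828 and 686 to 1224, and 346 to 506 and 618 to 907 CPM. Of 8 neutrophil markers 4, 2 and 5 fell and 1, 2 and 1 rose, with sums of 687 to 739 and 827 to 906, 72.8 to 106 and 182 to 211, and 553 to 729 and 461 to 505 CPM. B cell markers fell for 2, 4 and 4 of 5, with sums of 31.2 to 36.7 and 18.4 to 26.6, 32.1 to 38.1 and 19.8 to 29.4, and 13.3 to 18.2 and 7.14 to 8.04 CPM. The part of these cells in the result was not tested.

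**Figure D2:**
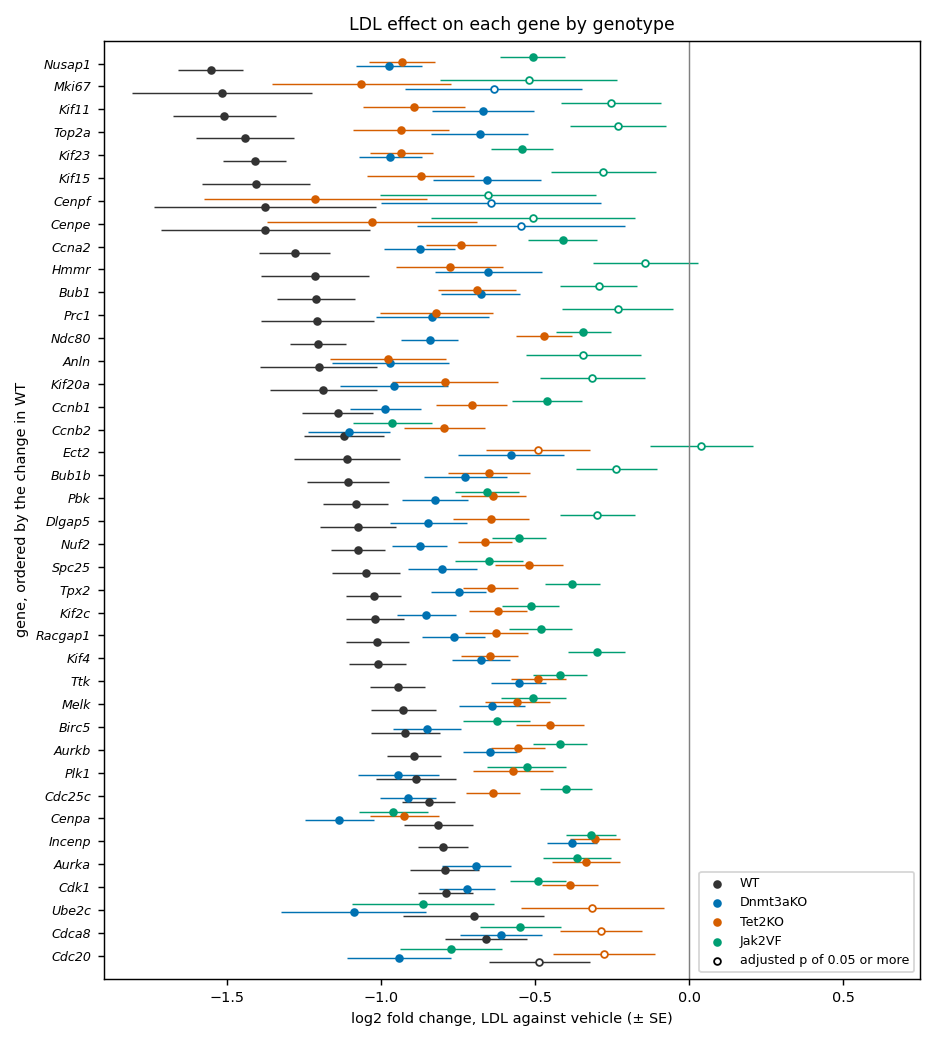
Each row is 1 gene, ordered by its change in WT, and each point the log2 fold change of LDL against vehicle in 1 genotype (n = 3 libraries a group), with its SE as a line; open points had an adjusted p of 0.05 or more. WT points lie farthest left for most genes, and the open points of Jak2VF lie farthest right, with Ect2 at 0.04.

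Among the cyclins and Cdk1, all 5 genes fell with LDL in each of the 4 genotypes. Cdk1, the kinase that starts mitosis (ENSMUSG00000019942, chr10:69335146-69352938, minus strand), stood at 136, 136 and 130.4 CPM with vehicle and 80.5, 72.2 and 80.2 with LDL in WT, a log2 change of -0.79 ± 0.09 (adjusted p = 1.58e-06, edgeR). In Jak2VF its libraries read 132, 130.3 and 116 and 82.8, 95.9 and 90.7 CPM (-0.49 ± 0.09, adjusted p = 0.000517). Both pairs of groups were separate. Its values were 83.7, 88.2 and 83.9 against 51.9, 52.6 and 50.5 CPM in Dnmt3aKO and 99.6, 96.97 and 101 against 83.4, 62.2 and 81.7 in Tet2KO, also without overlap. Ccnb2, a B-type cyclin that binds Cdk1, changed by -1.12 ± 0.13 in WT, -1.10 ± 0.13 in Dnmt3aKO, -0.79 ± 0.13 in Tet2KO and -0.96 ± 0.13 in Jak2VF. No interaction was called for it, which does not show equal changes. Ccna2, the cyclin of S and G2 phase, changed by -1.28 ± 0.11 in WT and by -0.41 ± 0.11 in Jak2VF.

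All 4 mitotic kinases fell in every genotype. Aurka, which matures the centrosomes (ENSMUSG00000027496, chr2:172356190-172370535, minus strand), stood at 54.3, 54.7 and 55.03 CPM with vehicle and 31.01, 29.1 and 34.5 with LDL in WT (-0.79 ± 0.11, adjusted p = 2.19e-05, edgeR). In Tet2KO it stood at 40.7, 39.1 and 42.3 and 33.4, 26.8 and 36.8 CPM (-0.34 ± 0.11, adjusted p = 0.0421). The fall in Tet2KO was the smallest of the 4 fitted values, and LDL library 3 came close to the vehicle level. Aurka was called in 9 of 17 alternative fits in Tet2KO and in 11 of 16 in Jak2VF, and in all 17 in WT and all 16 in Dnmt3aKO. Plk1, the Polo-like kinase of mitotic entry, changed by -0.89 ± 0.13 in WT, -0.94 ± 0.13 in Dnmt3aKO and by -0.57 ± 0.13 and -0.53 ± 0.13 in Tet2KO and Jak2VF.

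Of the 5 checkpoint and anaphase-promoting complex genes, Ttk, a checkpoint kinase, was called lower with LDL in all 4 genotypes (-0.95 ± 0.089 in WT and -0.42 ± 0.088 in Jak2VF). Bub1b, the BubR1 protein of the checkpoint (ENSMUSG00000040084, chr2:118598211-118641591, plus strand), stood at 78.3, 92.5 and 94.8 CPM with vehicle and 34.2, 44.3 and 44.8 with LDL in WT (-1.11 ± 0.13, adjusted p = 3.28e-06, edgeR). In Jak2VF it read 61.5, 69.2 and 80.7 and 58.6, 55.4 and 65.3 CPM, groups that overlap (-0.24 ± 0.13, adjusted p = 0.215). Its partner kinase Bub1 changed by -1.21 ± 0.13 in WT and stood at -0.29 ± 0.12 in Jak2VF, where it was not called. Cdc20 and Ube2c, the ubiquitin-conjugating enzyme of the anaphase-promoting complex, had larger fitted falls in 2 mutants than in WT (-0.49 and -0.70): they were called lower in Jak2VF (-0.77 ± 0.16 and -0.86 ± 0.23) and in Dnmt3aKO (-0.94 ± 0.17 and -1.09 ± 0.24) and not in Tet2KO (-0.28 ± 0.17 and -0.31 ± 0.23). Cdc20 stood at 66.4, 54.7 and 57.2 CPM with vehicle in WT and 89.8, 74.1 and 69.6 in Jak2VF, and with LDL at 47.2, 37.9 and 42.2 and 39.4, 50.2 and 46.99. Its 3 Jak2VF vehicle libraries were the highest of the 24.

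The chromosomal passenger complex, which corrects faulty attachments, had all 4 genes lower with LDL in WT, Dnmt3aKO and Jak2VF and 3 in Tet2KO, where Cdca8 stood at -0.29 ± 0.13 (adjusted p = 0.157, edgeR). Incenp, its scaffold (ENSMUSG00000024660, chr19:9872296-9899551, minus strand), stood at 129.8, 136 and 139 CPM in WT with vehicle and at 77.1, 78.8 and 76.3 with LDL (-0.80 ± 0.081, adjusted p = 3.36e-07). With LDL the WT values lay within the range of the Jak2VF ones, 74.9, 79.4 and 79.3 CPM, while vehicle values did not overlap (97.3, 99.7 and 94.4 in Jak2VF). The Dnmt3aKO libraries lay lower, at 71.2, 62.3 and 60.3 CPM with LDL and 87.5, 78.8 and 85.8 with vehicle, and those of Tet2KO read 76.8, 71.8 and 80.9 and 99.2, 82.4 and 102.

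All 5 kinesins fell in WT, Dnmt3aKO and Tet2KO, and 2 of 5 (Kif4 and Kif2c) in Jak2VF. Kif11, the motor that pushes spindle poles apart (ENSMUSG00000012443, chr19:37376403-37421859, plus strand), stood at 73.7, 89.004 and 102 CPM with vehicle and 25.5, 39.2 and 28.1 with LDL in WT (adjusted p = 1.04e-06, edgeR). In Jak2VF it read 46.02, 54.97 and 72.4 and 48.8, 43.1 and 53.4 CPM (-0.25 ± 0.16, adjusted p = 0.283), with overlap. Kif20a, Kif15 and Kif11 had fitted changes from -1.51 to -1.19 in WT and from -0.32 to -0.25 in Jak2VF, where none of them was called.

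All 6 kinetochore and centromere genes were called lower in WT and in Tet2KO, and 4 of 6 in Dnmt3aKO and in Jak2VF, without Cenpe and Cenpf. In Tet2KO the libraries of Cenpe and Cenpf overlapped between treatments, and they were called in 8 and 10 of 17 alternative fits. Cenpa, the histone H3 variant that marks centromeres (ENSMUSG00000029177, chr5:30666777-30674830, plus strand), stood at 77.9, 69.6 and 77.98 CPM with vehicle and 42.6, 42.2 and 43.5 with LDL in WT (-0.81 ± 0.11, adjusted p = 1.65e-05, edgeR). It was 1 of 5 genes, with Cdc25c, Plk1, Cdc20 and Ube2c, whose fitted fall was larger in a mutant than in WT: -1.14 ± 0.11 in Dnmt3aKO, -0.92 ± 0.11 in Tet2KO and -0.96 ± 0.11 in Jak2VF. In Jak2VF it read 81.5, 78.02 and 76.4 and 37.9, 40.7 and 42.7 CPM, and after LDL the ranges of WT, Tet2KO and Jak2VF overlapped. Cenpe and Cenpf, large kinetochore proteins, and Mki67, the proliferation marker Ki-67, had the largest SEs of the LDL effects (-1.38 ± 0.34, -1.38 ± 0.36 and -1.52 ± 0.29 in WT), above that of Ube2c (-0.70 ± 0.23). Mki67 stood at 111, 151 and 62.6 CPM with LDL in WT and at 238, 113 and 243 with vehicle in Tet2KO, where library 2 alone was low, as it was for Cenpe (48.2, 22.5 and 48.4) and Cenpf (43.1, 19.9 and 44.4). The LDL libraries low in these genes, number 3 of WT and of Tet2KO, are the 2 with Gfap, whose Cenpe levels were 26.4, 34.7 and 11.8 and 20.6, 26.2 and 11.6 CPM in the order of the numbers.

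All 4 spindle assembly genes fell in WT, Dnmt3aKO and Tet2KO, and 2 of 4 (Nusap1 and Tpx2) in Jak2VF. Tpx2, which activates Aurora A on the spindle (ENSMUSG00000027469, chr2:152847964-152895321, plus strand), stood at 133, 149 and 149 CPM with vehicle and 65.7, 73.9 and 72.6 with LDL in WT (-1.02 ± 0.089, adjusted p = 4.2e-08, edgeR). Its Jak2VF libraries read 119.8, 125 and 135 and 94.8, 93.3 and 104 CPM (-0.38 ± 0.088, adjusted p = 0.00452). Treatments were separate in both, and after LDL every Jak2VF library lay above every WT library. Hmmr, a spindle pole protein that is also a hyaluronan receptor, changed by -1.22 ± 0.17 in WT and stood at -0.14 ± 0.17 in Jak2VF.

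All 5 cytokinesis genes fell in WT and Dnmt3aKO, 4 of 5 in Tet2KO and 2 of 5 (Racgap1 and Kif23) in Jak2VF. Anln, the actin-binding protein of the contractile ring (ENSMUSG00000036777, chr9:22332012-22389188, minus strand), stood at 108, 135 and 152 CPM with vehicle and 43.9, 74.5 and 53.4 with LDL in WT (-1.20 ± 0.19, adjusted p = 9.03e-05, edgeR). In Jak2VF it read 92.6, 110.5 and 147 and 92.9, 79.3 and 104 CPM (-0.34 ± 0.19, adjusted p = 0.201), with overlap. Ect2, the exchange factor that activates RhoA for cleavage, was the 1 gene with a fitted value above 0 in Jak2VF: 40.6, 48.9 and 55.5 CPM with vehicle and 51.97, 45.2 and 51.8 with LDL (0.039 ± 0.17), against 46.1, 59.3 and 66.5 and 20.9, 36.2 and 22.4 in WT (-1.11 ± 0.17).

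Top2a, the topoisomerase that untangles sister chromatids (ENSMUSG00000020914, chr11:98992943-99024189, minus strand), stood at 308, 379.7 and 420.3 CPM with vehicle and 118, 169.7 and 119.8 with LDL in WT (adjusted p = 9.73e-07, edgeR). In Jak2VF it read 209.5, 244 and 309.7 and 219, 190.01 and 241 CPM (-0.23 ± 0.16, adjusted p = 0.304). The WT groups were far apart and the Jak2VF groups overlapped. It read 204, 198 and 216 and 145, 116 and 125 CPM in Dnmt3aKO (-0.68 ± 0.16) and 276, 276 and 277 and 126, 171 and 137 in Tet2KO (-0.94 ± 0.16), both without overlap.

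**Figure D3:**
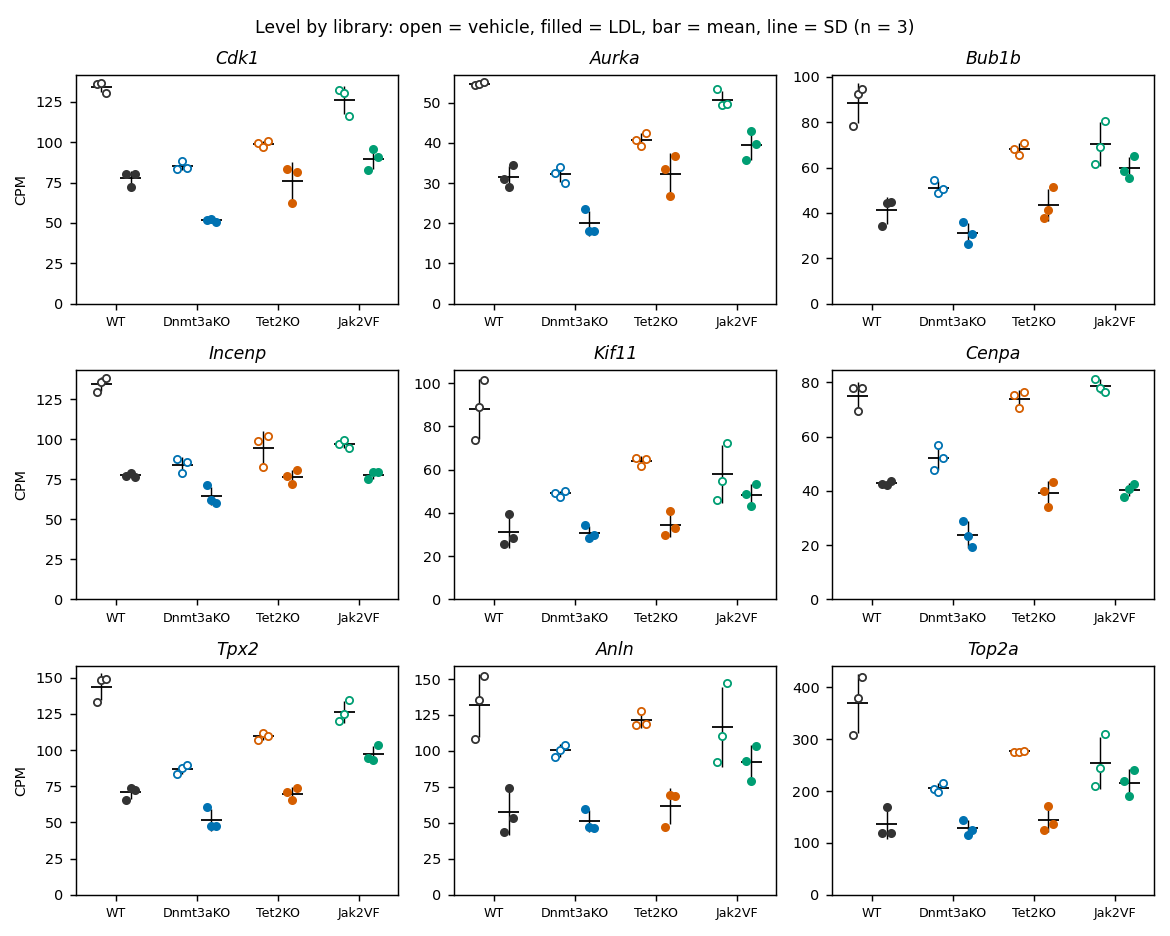
Levels in CPM of 9 genes, for each role the one with the highest mean level, by genotype; open points are vehicle and filled points LDL libraries, the bar is the mean and the line the SD (n = 3). WT drops steeply for all 9 genes, from above Dnmt3aKO to about the level of Tet2KO with LDL, and the Jak2VF groups overlap for Bub1b, Kif11, Anln and Top2a.

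The mutants also differed from WT before LDL. With vehicle 35 of 40 genes were lower in Dnmt3aKO (5.51% of all genes were), with a median of -0.75, and all 40 had the 3 Dnmt3aKO libraries below the 3 WT libraries, as did 16.4% of all genes tested. In Tet2KO 23 of 40 were lower (2.72%), with a median of -0.43, and 33 genes had all Tet2KO libraries below WT (15% of all genes tested). In Jak2VF 8 of 40 were lower (5.26%), with a median of -0.18: Bub1, Aurkb, Incenp, Kif11, Ndc80, Nusap1, Kif23 and Top2a. None of the 3 had a gene of the 40 called higher. All 3 share the WT libraries, so the comparisons are not independent of each other, and the 40 genes summed to 1932 to 2013 CPM in Dnmt3aKO, 2279 to 2557 in Tet2KO and 2578 to 3036 in Jak2VF. At an unadjusted p under 0.05 in edgeR, 0, 0 and 1 of the 40 genes were higher than in WT in Dnmt3aKO, Tet2KO and Jak2VF. Of all 19444 genes tested, 1984, 1520 and 1994 were. The marker counts that follow are calls at the stricter adjusted threshold. Progenitor markers were higher than in WT for 5 of 7 in Dnmt3aKO, 3 of 7 in Tet2KO and 6 of 7 in Jak2VF, and 0, 0 and 1 of 5 stromal markers and 1, 6 and 0 of 6 T and NK cell markers were. Of 8 neutrophil markers 7 were higher in Dnmt3aKO, 6 in Jak2VF and 1 in Tet2KO, where 6 were lower (sum 199 to 261 CPM in WT, 687 to 739, 72.8 to 106 and 553 to 729 in Dnmt3aKO, Tet2KO and Jak2VF). Monocyte markers were higher for 4, 2 and 2 of 4 in the same order (354 to 425 CPM in WT, 733 to 767, 655 to 828 and 346 to 506), megakaryocyte markers for 2, 2 and 4 of 5, with 1 lower in Dnmt3aKO, and B cell markers for 4, 4 and 0 of 5. The part of these cells was not tested.

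Ndc80, the microtubule-binding subunit of the outer kinetochore (ENSMUSG00000024056, chr17:71496100-71526857, minus strand), stood at 37.3, 40.8 and 39.7 CPM with vehicle in WT, 22.01, 22.5 and 21.1 in Dnmt3aKO, 24.5, 22.96 and 26.2 in Tet2KO and 31.2, 31.1 and 32.03 in Jak2VF. Each mutant's libraries lay below those of WT, and the log2 differences from WT were -0.84 ± 0.09, -0.67 ± 0.09 and -0.32 ± 0.089, with adjusted p of 1.17e-06, 4.58e-05 and 0.025 (edgeR). Cenpa differed in Dnmt3aKO (-0.53 ± 0.11) and stood at -0.021 ± 0.11 in Tet2KO and 0.065 ± 0.11 in Jak2VF. Anln, at -0.39 ± 0.19 in Dnmt3aKO, was not called in any mutant with vehicle. The count in Tet2KO was 15 without WT vehicle library 2 or Tet2KO vehicle library 2. That in Jak2VF was 3 without any 1 of WT vehicle 2 or 3 and Jak2VF vehicle 1 or 2, 3 with no scaling beyond the library total or with only these groups fitted, and 5 with no filter on low counts. With counts read as already scaled, limma called 15, 1 and 0 genes in Dnmt3aKO, Tet2KO and Jak2VF.

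With LDL the 3 mutants stood in different places relative to WT. In Dnmt3aKO 28 of 40 genes were lower (9.46% of all genes were), with a median of -0.48, and 17 were when only these groups were fitted (25 without both Gfap libraries). In Tet2KO 0 of 40 were called either way (1.48% of all genes were lower and 1.28% higher), with a median of -0.01 and fitted values between -0.32 and 0.37. In Jak2VF 22 of 40 were higher (4.21%) and 0 lower, with a median of 0.47. For 27 genes every Jak2VF library lay above every WT library, as for 11.9% of all genes tested. At an unadjusted p under 0.05 in edgeR 0 of the 40 were lower in Jak2VF, against 3046 of all 19444 genes. These 3 comparisons share the WT LDL libraries. Summed, the 40 genes came to 1059 to 1340 CPM in Dnmt3aKO, 1439 to 1571 in Tet2KO and 1962 to 2217 in Jak2VF.

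Tet2KO and WT with LDL differed at an unadjusted p under 0.05 in 1 gene each way (2371 of all 19444 genes did), and edgeR, DESeq2, limma and limma-voom all called 0 (edgeR called 1 without WT LDL 2). Their libraries with the same title number deviate together, so these numbers were also used as a block with these 6 libraries alone. The pairs were thus chosen from these same data. The descriptions give library 3 of WT and library 3 of Tet2KO different numbers, and both are the libraries with Gfap. In the block fit 3 genes were called: Ect2 at 0.40 ± 0.10 and Hmmr at 0.22 ± 0.066 higher and Cenpe at -0.29 ± 0.079 lower, with edgeR adjusted p of 0.0217, 0.0403 and 0.0302. Ect2 stood at 20.9, 36.2 and 22.4 CPM in WT and 29.5, 37.5 and 36.04 in Tet2KO, higher in 3 of 3 pairs, and Cenpe at 26.4, 34.7 and 11.8 and 20.6, 26.2 and 11.6, lower in 3 of 3.

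In Jak2VF with LDL the genes above WT were mostly kinesins (5 of 5), spindle assembly genes (4 of 4) and cytokinesis genes (4 of 5), while 0 of 4 mitotic kinases and 0 of 4 passenger complex genes were called. Longer genes had larger fitted differences: Spearman's rho with the summed exon length was 0.62 over the 40 genes and 0.25 over all genes. The part of transcript length in this split by role was not tested. Hmmr had the largest fitted difference, 0.96 ± 0.17 (adjusted p = 0.00162, edgeR), and Top2a, at 219, 190.01 and 241 against 118, 169.7 and 119.8 CPM, differed by 0.67 ± 0.16. Kif23, the motor of the central spindle (ENSMUSG00000032254, chr9:61915905-61946774, minus strand), stood at 30.97, 30.5 and 32.8 CPM in Jak2VF and 21.4, 25.9 and 19.9 in WT (0.49 ± 0.10, adjusted p = 0.00466). Neither Cenpa (-0.08 ± 0.11) nor Ube2c (-0.14 ± 0.23) was called, with fitted values below 0. The count fell to 1 when only these 2 groups were fitted, to 11 without WT LDL 1 or Jak2VF LDL 3, to 13 without WT LDL 3 and to 14 in limma with counts read as already scaled, and it was 15 without both Gfap libraries. Beside this, 5 of 7 progenitor markers and 1 of 5 stromal markers were higher and 5 of 6 T and NK cell markers lower in Jak2VF. Of 8 neutrophil markers 5 were higher, and 4 of 6 macrophage markers lower. The part of these cells was not tested.

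The test of whether LDL acted differently in a mutant is the interaction, the log2 LDL effect in the mutant minus that in WT, where a positive value is a smaller fall. In Jak2VF 21 of 40 genes were called, all positive, against 1.51% of all genes tested, with a median of 0.66. Nusap1 (1.05 ± 0.15, adjusted p = 0.00293), Ndc80 (0.86 ± 0.13, 0.00293), Kif23 (0.87 ± 0.14, 0.00546) and Top2a (1.21 ± 0.22, 0.00797) had the smallest p-values in edgeR's test. Nusap1 stood at 44.4, 54.4 and 50.8 CPM with vehicle and 32.99, 32.6 and 39.5 with LDL in Jak2VF, Ndc80 at 31.2, 31.1 and 32.03 and 22.8, 26.1 and 25.4, against 37.3, 40.8 and 39.7 and 17.3, 18.1 and 15.7 in WT. For both genes the Jak2VF libraries lay below WT with vehicle and above WT with LDL. By role, 4 of 4 spindle assembly genes, 4 of 5 kinesins and 3 of 5 cytokinesis genes were called, and 0 of 4 mitotic kinases. The interaction also went with transcript length, as given below, and the part of length in this split was not tested. Cdc20 (-0.29 ± 0.23), Ube2c (-0.16 ± 0.32) and Cenpa (-0.15 ± 0.16) had negative fitted values and were not called.

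The count of 21 depended on single libraries and on the fit: it was 2 with only the 4 groups fitted, 0 in limma with counts read as already scaled, 14 without both Gfap libraries, 8 without WT vehicle 2, WT LDL 1 or Jak2VF vehicle 1, 9 without WT vehicle 3, Jak2VF vehicle 2 or Jak2VF LDL 3, 10 without Jak2VF LDL 1 and 11 without WT LDL 3. DESeq2 called 28. Nusap1 and Ndc80 were each called in 22 of the 23 alternative fits, and their fitted values ran from 0.95 to 1.13 and from 0.69 to 0.93. These were the most among the called genes, and Prc1 and Kif2c, each called in 10 of 23, had the fewest.

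**Figure D4:**
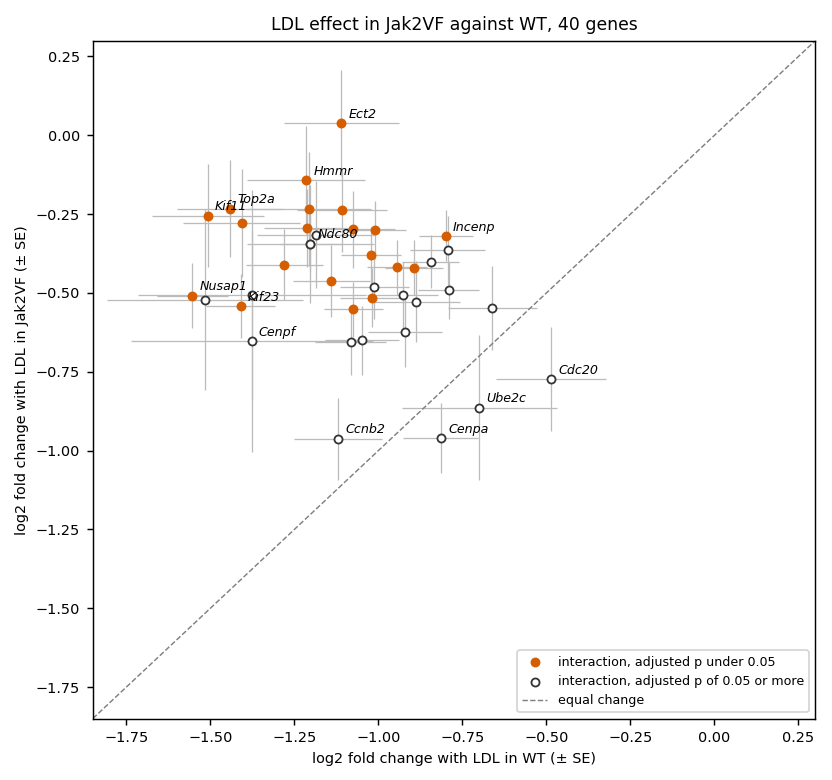
Each point is 1 of the 40 genes, with the log2 fold change of LDL against vehicle in WT on the x axis and in Jak2VF on the y axis and SEs as lines; filled points had an interaction with an adjusted p under 0.05, and the dashed line marks equal change. Of the 40 points 37 lie above the line, and Cdc20, Ube2c and Cenpa lie below it.

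In Dnmt3aKO 0 of 40 genes had a called interaction (0.19% of all genes had one above 0), with a median of 0.27. Of them 15 had an unadjusted p under 0.05 in edgeR, all positive (2744 of all 19444 genes had one, 1233 of them positive), limma and limma-voom called 0, DESeq2 called 4, and 8 were called without WT LDL library 2. The smallest p-values were those of Nusap1 (0.58 ± 0.15), Incenp (0.42 ± 0.11), Kif11 (0.84 ± 0.23) and Top2a (0.76 ± 0.22), with adjusted p of 0.0854, 0.107, 0.112 and 0.124 (edgeR). Kif11 stood at 49.4, 47.5 and 50.02 CPM with vehicle and 34.5, 28.4 and 29.6 with LDL in Dnmt3aKO, its LDL values within the WT range and its vehicle values below all of WT. In Tet2KO 1 of 40 was called, Ndc80 (0.0411% of all genes were called above 0), with a median of 0.42, and 26 had an unadjusted p under 0.05 (1428 of all genes). Ndc80 stood at 24.5, 22.96 and 26.2 CPM with vehicle and 17.9, 18.1 and 17.1 with LDL in Tet2KO, an interaction of 0.73 ± 0.13 (adjusted p = 0.0276). Its LDL range in Tet2KO and WT was shared, and the vehicle ranges were apart. That call was made in 11 of 23 alternative fits and not without both Gfap libraries. Incenp (0.49 ± 0.11), Nusap1 (0.62 ± 0.15) and Ttk (ENSMUSG00000038379, chr9:83834689-83872389, plus strand; 0.46 ± 0.13), came next with adjusted p of 0.109, 0.128 and 0.221. Ttk read 20.2, 23.7 and 23.7 and 12.1, 12.6 and 10.3 CPM in WT and 15.9, 16.9 and 16.4 and 12.5, 11.4 and 11.1 in Tet2KO, again with a shared LDL range and separate vehicle ranges.

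Batch 1, fitted apart, gave the same direction for LDL without calls. In WT 39 of 40 genes had a negative fitted value, with a median of -0.65, and in Tet2KO all 40, with a median of -0.71. In both, 0 of 40 genes were called lower, and 0% of all genes. Of the 40, 9 in WT and 22 in Tet2KO had an unadjusted p under 0.05 (707 and 1126 of all genes), and DESeq2 called 0 and 1 and both limma fits 0. LDL libraries lay below vehicle for 28 genes in WT and 13 in Tet2KO, and for 10.1% of all genes tested in each. Top2a read 59.3, 92.3 and 91.7 CPM with vehicle and 51.3 and 52.4 with LDL in WT (-0.65 ± 0.32) and 133, 69.9 and 120.03 and 46.3 and 79.2 in Tet2KO (-0.78 ± 0.32). Kif11 read 13.9, 24.6 and 22.7 and 8.70 and 11.7 CPM in WT and 32.01, 14.1 and 26.3 and 7.99 and 14.7 in Tet2KO. In Tet2KO, vehicle library 2 was low and LDL library 2 high within their groups. Both genes ran the same way across the Tet2KO libraries.

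The genotype difference of the main set had the other sign in batch 1. With vehicle all 40 fitted values of Tet2KO against WT were positive, with a median of 0.34, and 0 were called (0.73% of all genes were higher); 1 gene had an unadjusted p under 0.05, a smaller share than the 2163 of all 15481 genes, and DESeq2 called 1 and both limma fits 0. Cenpa stood at 44.8, 40.9 and 50.7 CPM in Tet2KO and 24.998, 29.5 and 34.2 in WT (0.62 ± 0.14, adjusted p = 0.0701, edgeR), the 1 gene whose Tet2KO libraries all lay above WT (10.5% of all genes tested). With LDL the median was 0.26 and 0 were called (0.245% of all genes were higher), 1 at an unadjusted p under 0.05 (1844 of all genes), and DESeq2 and both limma fits called 0. The interaction had a median of -0.13, with 0 called (0% of all genes), 0 at an unadjusted p under 0.05 (236 of all genes) and 0 by DESeq2 and both limma fits. The 40 genes summed to 657 to 922 CPM in WT and 721 to 1250 in Tet2KO with vehicle, and to 568 to 603 and 517 to 779 with LDL. Stromal marker sums in Tet2KO ran from 574 to 3227 CPM with vehicle and from 656 to 2959 with LDL, and their part in these values was not tested. The sets were normalized separately, so levels of the 40 genes are not set against each other between sets.

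**Figure D5:**
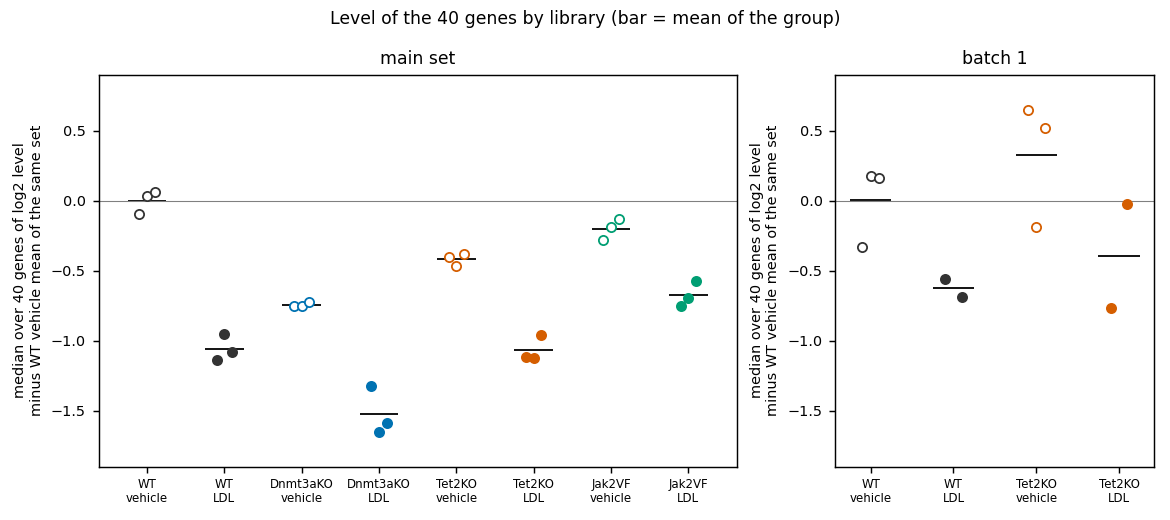
Each point is 1 library, placed at the median over the 40 genes of its log2 level minus the WT vehicle mean of the same set; open points are vehicle, filled points LDL, and bars group means. In the main set the LDL groups of WT and Tet2KO lie at about the same height, Dnmt3aKO lower and Jak2VF higher, while in batch 1 vehicle library 2 of Tet2KO lies below 2 of the 3 WT vehicle libraries.

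Genes of the same programme outside the 40 were counted in the same fits. Of all genes tested, 7.58%, 8.96%, 8.21% and 9.72% were called lower with LDL in WT, Dnmt3aKO, Tet2KO and Jak2VF. Of 40 other mitosis and G2/M genes, 38 fell with LDL in WT, 33 in Dnmt3aKO, 26 in Tet2KO and 18 in Jak2VF, with 0 higher in each and medians of -0.97, -0.68, -0.50 and -0.39. Aspm, a spindle pole protein, changed by -1.63 ± 0.28 and Kif14, a cytokinesis kinesin, by -1.47 ± 0.21 in WT. Pttg1, securin, was an exception with a fitted value of 0.21 ± 0.19 that was not called. Of 13 condensin and cohesin subunits 9 fell in WT and 5, 5 and 4 in Dnmt3aKO, Tet2KO and Jak2VF. The condensin core Smc2 changed by -1.19 ± 0.21 in WT, and for the cohesin subunits Stag1 and Stag2 (-0.32 ± 0.16 and -0.30 ± 0.19) no LDL effect was called in any genotype. Ncapg2, a condensin II subunit, had the largest difference between Dnmt3aKO and WT with vehicle of this list, -2.10 ± 0.18.

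Of 31 DNA replication genes, 26 fell with LDL in WT (7.58% of all genes did), 20 in Dnmt3aKO (8.96%), 5 in Tet2KO (8.21%) and 9 in Jak2VF (9.72%). Their medians were -0.55, -0.41, -0.21 and -0.18, and the difference between the lists was not tested. Pcna, the sliding clamp, changed by -0.40 ± 0.10 in WT, and Mcm5, a subunit of the replicative helicase, by -0.75 ± 0.11; in Tet2KO they stood at 0.05 ± 0.10 and -0.30 ± 0.11 and were not called. With vehicle 28 of 31 were lower in Dnmt3aKO than in WT (5.51% of all genes were), 16 in Tet2KO (2.72%) and 8 in Jak2VF (5.26%). Of these lists 14 other mitosis genes, 5 condensin and cohesin subunits and 7 replication genes had a called positive interaction in Jak2VF, as did 1.51% of all genes tested.

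Of 22 regulators of the programme, 7 fell with LDL in WT, 4 in Dnmt3aKO, 3 in Tet2KO and 1 in Jak2VF, where 7.58%, 8.96%, 8.21% and 9.72% of all genes were called lower. The count in Jak2VF lies below that background and the one in Tet2KO is near it. Foxm1, the activator of late cell cycle genes, changed by -1.005 ± 0.16 in WT, -0.67 ± 0.16 in Dnmt3aKO and -0.69 ± 0.16 in Tet2KO, and stood at -0.27 ± 0.16 in Jak2VF, where it was not called. Mybl2 (B-Myb) changed by -0.57 ± 0.12 and the repressor E2f8 by -1.34 ± 0.16 in WT. In Jak2VF the 1 that fell was Nfyc (-0.33 ± 0.11), while E2f2 (0.37 ± 0.082) rose there and in Tet2KO (0.26 ± 0.082), where 8.44% and 8.59% of all genes were called higher. The NF-Y subunits Nfya, Nfyb and Nfyc were not called in WT (-0.11, -0.17 and 0.081). Of 9 G1 cyclins, their kinases and Myc, 3 fell and 1 rose in WT: the G1 cyclins Ccnd1 (-0.91 ± 0.22), Ccne1 (-0.36 ± 0.12) and Ccne2 (-0.90 ± 0.16) fell and the growth factor-responsive Myc (0.45 ± 0.11) rose (6.67% of all genes were called higher in WT). Of 13 Cdk inhibitors and p53 targets 2 fell and 2 rose in WT, against 7.58% and 6.67% of all genes. Mdm2, the p53 ligase and target, changed by 0.40 ± 0.085 in WT and 0.94 ± 0.085 in Jak2VF, Cdkn2c, an inhibitor of the G1 kinases, by -1.02 ± 0.13 in WT, and Cdkn1a (p21) stood at 0.26 ± 0.10 and was not called.

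Within the 40 genes, levels rose and fell together across the 24 main libraries. The median Pearson correlation of log2 levels over 780 gene pairs was 0.90, with a range of 0.46 to 1.00. Once the group means were removed it was 0.37, with 600 of 780 pairs above 0. In the 10 libraries of batch 1 the medians were 0.91 and 0.90. These pairs share libraries and groups and are given as a description. Cenpf (0.71), Cenpe (0.72), Mki67 (0.78), Ube2c (0.81) and Cdc20 (0.82) had the lowest median correlation with the other genes in the main set.

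The LDL effects of the 40 genes were ordered in part by transcript length. Over the 40 genes, Spearman's rho between the summed exon length and the fitted LDL effect was -0.52 in WT and -0.58 in Tet2KO, where longer genes fell more, and 0.29 in Dnmt3aKO and 0.37 in Jak2VF, where they fell less. Over all genes with a length the values were -0.17, -0.13, 0.081 and 0.27. These are descriptions across genes that share libraries. For the interaction in Jak2VF they were 0.59 over the 40 genes and 0.34 over all genes. For the difference from WT with LDL the values over the 40 genes were 0.62 in Jak2VF and 0.68 in Dnmt3aKO, and over all genes 0.25 and 0.18. With an offset for length in each library, a setting added after the values were seen, 40, 37, 37 and 31 genes were lower with LDL in WT, Dnmt3aKO, Tet2KO and Jak2VF, 27 were higher in Jak2VF than in WT with LDL, and 25 had a called interaction in Jak2VF. In Dnmt3aKO 4 genes then had a called interaction. The part of transcript length in the interaction was not tested beyond this setting.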

How the data were processed

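Total RNA was depleted of ribosomal RNA and its poly-A fraction sequenced, per the labels' protocols. The deposited values are whole-number counts per gene and library; the authors' file names call them normalized, but totals differ between libraries and they were read as counts without scaling. The genome build was mm10, per the submitters' processing notes; which aligner and counter made the counts is not given in the sources used. All 34 libraries were used and 0 columns were left out.

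Groups came from the sample labels. A gene entered the tests when 3 libraries (2 in batch 1) reached 10 counts for it. The tests used edgeR 4.0.16 (R 4.3.3), quasi-likelihood, TMM scaling, 1 mean per group and a spread shared by the set, two-sided, with Benjamini-Hochberg adjustment over all genes tested of a comparison (13 comparisons in the main set, 5 in batch 1). CPM are counts over TMM-scaled library totals. Alternatives were other scalings, no filter, only the groups compared, replicate blocks, each library left out, limma 3.58.1 and DESeq2 1.42.0; the scripts were tested on simulated data. The variation between libraries of a group (edgeR's common coefficient), which may be technical, came to 0.137 in the main set and 0.199 in batch 1. It sets the precision beside the depth.

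The members, gene lists and tests were chosen with earlier results of these data known. Genes shown by library were, for each of 9 roles, the one with the highest mean CPM, and the 4 with the smallest p of each interaction; others were named or shown after their values were seen. Replicate numbers in the titles were checked for pairing: only for Tet2KO against WT with LDL did every one of 3 same-numbered pairs of libraries have deviations correlated over 0.1 (0.724, 0.718 and 0.501). Only there were they used as pairs with the compared groups fitted alone. As an alternative, the title numbers were also a replicate block in fits of all groups of each set. Positions and lengths are from GENCODE on GRCm38, sequences from RefSeq on GRCm38.p6.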

Additional observations from a re-analysis of the deposited data

Results flagged for a closer look

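A difference between genotypes in the LDL effect, tested as an interaction in edgeR, was called for 22 pairs of a gene and a mutant, each with 3 libraries a group. In Tet2KO it was Ndc80, at 0.73 on the log2 scale. In Jak2VF the interaction was called for 21 genes, all with a smaller fall than in WT. The 8 with the largest values were Kif11 (1.25), Top2a (1.21), Ect2 (1.15), Kif15 (1.13), Hmmr (1.07), Nusap1 (1.05), Prc1 (0.97), Bub1 (0.92). The other 13 were Bub1b (0.87), Ccna2 (0.87), Kif23 (0.87), Ndc80 (0.86), Dlgap5 (0.78), Kif4 (0.71), Ccnb1 (0.68), Tpx2 (0.64), Ttk (0.53), Nuf2 (0.52), Kif2c (0.51), Incenp (0.48), Aurkb (0.47). Among these genes the adjusted p ran from 0.00293 for Nusap1 and Ndc80 to 0.0473 for Prc1, and each count depends on single libraries as given beside it above. Of 23 alternative fits in Jak2VF, Prc1 and Kif2c were called in 10, Ttk and Incenp in 11, and Aurkb, Kif15, Nuf2 and Hmmr in 12. Ccnb1, Dlgap5 and Ect2 were called in 13, Bub1b in 14 and Tpx2 in 18. Ccna2, Bub1, Kif11, Kif4, Kif23 and Top2a were called in 21, and Nusap1 and Ndc80 in 22.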

How the results depend on the processing

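In the main set the medians kept their direction under the other tools, scalings and filters, with 2 exceptions: the median for Tet2KO against WT with LDL ran from -0.13 to 0.015, and the median interaction in Dnmt3aKO was -0.0095 in limma with counts read as already scaled (unscaled log2 counts). The other medians of that setting were -1.18, -1.16 and -0.74 for LDL in WT, Dnmt3aKO and Tet2KO, -0.63 and -0.62 for Dnmt3aKO against WT with vehicle and LDL, -0.56 and -0.13 for Tet2KO, and 0.65 for Jak2VF with LDL; in batch 1 they were -0.20 for LDL in WT, 0.86 for Tet2KO against WT with vehicle and -0.70 for the interaction. The same setting called 6 genes for LDL in Jak2VF, 15, 1 and 0 for Dnmt3aKO, Tet2KO and Jak2VF against WT with vehicle, 14 for Jak2VF with LDL, and 0 for the interactions in Tet2KO and Jak2VF.

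With only the groups compared in the fit, 17 genes were called for Dnmt3aKO and 1 for Jak2VF against WT with LDL. There were 3 for Jak2VF with vehicle, and 0 and 2 for the interactions in Tet2KO and Jak2VF. Such fits estimate the spread from fewer libraries, and the spread was also unequal between groups. The chi-square per degree of freedom between 2 libraries of a group reached 103.6 in WT LDL, 99.7 in Tet2KO LDL and 87.7 in Jak2VF vehicle. In batch 1 it reached 91.7 in Tet2KO vehicle. In the Dnmt3aKO groups it was at most 15.6. The fit over all groups shares 1 spread, and the part of this in the counts was not tested. With no scaling beyond the library total, 3 were called for Jak2VF with vehicle, and with no filter on low counts 5, with 2 and 0 for the interactions in Dnmt3aKO and Tet2KO. DESeq2 called 4 and 3 genes for the interactions in Dnmt3aKO and Tet2KO, and in batch 1 1 gene for LDL in Tet2KO and 1 for Tet2KO against WT with vehicle. The length offset called 4 for the interaction in Dnmt3aKO. Without both Gfap libraries the median for LDL in Tet2KO was -0.74 and that for the interaction in Jak2VF 0.56, and the interaction in Tet2KO had 0 calls.

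Leaving out 1 library at a time gave 15 to 21 calls for Tet2KO and 3 to 9 for Jak2VF against WT with vehicle, 0 to 1 and 11 to 25 for the same mutants with LDL, and 0 to 8, 0 to 2 and 8 to 26 for the interactions in Dnmt3aKO, Tet2KO and Jak2VF. Medians ran from -0.74 to -0.61 for LDL in Tet2KO, from 0.23 to 0.36 and from 0.56 to 0.70 for the interactions in Dnmt3aKO and Jak2VF, and in batch 1 from -1.20 to -0.41 for LDL in Tet2KO, from -0.21 to 0.58 for Tet2KO against WT with LDL and from -0.57 to 0.25 for the interaction.

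As a replicate block, the title numbers gave 3 calls for Tet2KO against WT with LDL with these 2 groups alone and 0 with all groups, and they changed the other counts by at most 2. The numbers in the descriptions as a block gave 0 for the interaction in Tet2KO and 40, 35, 33 and 26 calls for LDL in WT, Dnmt3aKO, Tet2KO and Jak2VF. Nothing in the labels shows that either kind of number pairs libraries. For single genes under all settings, 11695 values kept their side of the threshold, 542 lost the call, 163 gained it and 0 called values changed sign. The direction of values called in neither fit was not compared. Apart from the settings named, the cause of these changes was not tested. The lowest count of any of the 40 genes was 146 in the main set and 22 in batch 1, where each LDL group had 2 libraries.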
